A study of Mus musculus with 4 samples.

Results

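The Vegfa Thbs1 macrophages low in C1q were 274 barcodes of mouse melanoma tumors, 52 in the long treatment cohort and 222 in the short treatment cohort, out of 3809 barcodes with at least 5 UMIs of Lyz2 and 6625 barcodes kept in all. They were chosen by their own counts, where a UMI (unique molecular identifier) marks 1 captured transcript. A barcode had to hold at least 5 UMIs of Lyz2, at least 3 of Thbs1 and Vegfa summed, at most 1 of Ly6c2, at most 2 of C1qa, C1qb and C1qc summed, and no UMI of Cd3d, Cd3e, Cd3g or Ccr7. Before that, barcodes were kept with 200 to 5000 genes, at most 5% mitochondrial UMIs and a leading hashtag at least 3 times the next. The rule thus selected on 11 genes, which were left out of every test below, and genes that vary together with them from cell to cell are favored in any comparison with barcodes outside the gate. Of 3535 other Lyz2 barcodes, 323 met the same limits but had fewer than 3 Thbs1 and Vegfa UMIs (Thbs1/Vegfa-low), 976 had more C1q UMIs (C1q-high), 2152 had more Ly6c2 UMIs with C1q within the limit (Ly6c2-high), and 84 held a Cd3 or Ccr7 UMI.

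The tumors came from wild-type male C57BL/6J mice, 7 to 8 weeks of age, that bore subcutaneous YUMMER1.7, a mouse melanoma line with many UV-induced mutations. Sorted CD45+ cells and CD45- cells were recombined at 80% to 20%, so that shares are shares of a remixed suspension, and all arms of a cohort were run as 1 pooled 10x 5′ library. The long cohort had 2 weeks of treatment with 4 doses and was collected at day 21, and the short cohort had 1 week with 2 doses and was collected at day 14. Arms within each cohort were isotype antibody, anti-MIF, anti-PD-1 and the combination, written anti-PD-1/anti-MIF. The hashtags do not tell mice of an arm apart, so each arm of a cohort was 1 sample without a replicate, and day, doses and library cannot be told apart between cohorts.

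Macrophages of this kind are known from oxygen-poor parts of tumors. Low oxygen stabilizes the transcription factor HIF-1, which raises genes of glucose uptake and glycolysis and Vegfa, the growth factor that drives new vessels. Thbs1 encodes thrombospondin 1, a matrix protein that restrains vessel growth and activates TGF-β, while C1q marks mature tissue macrophages and Ly6c2 marks recently arrived inflammatory monocytes. MIF (macrophage migration inhibitory factor) is a cytokine that signals through CD74, which is also the invariant chain of MHC class II.

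The sequences that define the arms are the 15-base hashtag oligonucleotides counted with the cells, shown whole in capitals because a barcode's arm rests on them.
Isotype hashtag: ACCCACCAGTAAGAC
Anti-PD-1 hashtag: GGTCGAGAGCATTCA
Anti-MIF hashtag: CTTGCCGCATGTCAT
Anti-PD-1/anti-MIF hashtag: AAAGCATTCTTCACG
Hashtag 5: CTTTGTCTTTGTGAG
The fifth hashtag is named anti-PD1-MIF-DDT in the files, is not among the treatments the labels list, and was kept out of the tests. Its barcodes, with 17 long and 65 short members, are included in values pooled over a cohort, except where the named arms are stated. The members' leading hashtag held at least 190 UMIs in long and 44 in short treatment. Another caller, HTODemux, placed 0 members in a different arm and did not call 26 of them as singlets. The libraries shared 20 barcodes, none of them a member.

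Gene UMIs came to 23702910 over 2516 barcodes of the long library and to 31799441 over 4987 barcodes of the short one. Members had a median of 8711.5 UMIs in long and 6102 in short treatment, below the C1q-high barcodes (13248 and 8571), below the Ly6c2-high barcodes (9779 and 6923) and above the Thbs1/Vegfa-low barcodes (7308 and 4453). As a description of the gate, Thbs1 stood at 1904 CPM (the UMIs of a gene relative to all UMIs of the same sum, on the usual CPM scale) in members of the long cohort and 2477 in the short cohort, against 523 and 1208 in the other Lyz2 barcodes. Vegfa stood at 512 and 495 against 164 and 225 CPM. Thbs1 was detected in 89.1% of members and Vegfa in 67.2%, with 154 members holding both, 90 only Thbs1 and 30 only Vegfa. No C1q UMI was seen in 248 members and no Ly6c2 UMI in 170. Just inside the limit, at 3 Thbs1 and Vegfa UMIs, were 9 long and 20 short members, and just outside it, at 2 UMIs, 7 long and 22 short barcodes. From outside to inside, the glucose transporter Slc2a1 went from 261 to 530 CPM in long and from 287 to 347 in short barcodes. Bnip3 went from 65.3 to 318 and from 123 to 253, and Cd14 from 1332 to 931 and from 780 to 403.

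Genes of macrophages in general were present in members. Csf1r, the receptor for the growth factor M-CSF, was detected in 83.9%, Cd68 in 82.8% and the integrin Itgam in 85.0%. Adgre1, which encodes the antigen F4/80, was detected in only 18.2% and stood at 26.4 CPM in the long and 43.1 in the short cohort, against 122 and 58.9 in the other Lyz2 barcodes. Among Cd3 barcodes, which should lack these genes, Csf1r was detected in 1.37% of the long and 1.93% of the short cohort, Cd68 in 3.44% and 4.13%, Itgam in 2.06% and 2.48% and Adgre1 in 0.344% and 0.275%, at median depths of 5355 and 4172 UMIs. Of the marker genes given for these cells, Nlrp3, the inflammasome sensor, had no call, with a log2 fold change of 0.27 (SE 0.19, adjusted p = 0.585 by edgeR's quasi-likelihood test). Of 5 tested genes of macrophages in general none was called and the median log2 fold change against the other Lyz2 barcodes was 0.08, so the name macrophage rests on genes that those barcodes shared. Plac8, of the monocyte list, was detected in 76.9% of long and 89.2% of short members. It was in 98.7% and 99.3% of Ly6c2-high and 56.2% and 81.9% of C1q-high barcodes. A Ly6c2 UMI was held by 104 of 274 members. The genes shown here do not separate members from monocytes low in Ly6c2.

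Genes of other lineages were at or near 0 UMIs in members. None of the 6 melanoma genes (Pmel, Mlana, Dct, Tyr, Tyrp1, Sox10) had a UMI, which allows up to 1.09% of members with such a UMI and 1.57 CPM but does not limit how many members express these genes below what was captured. The 6 T cell genes, of which Cd3d, Cd3e and Cd3g were in the rule, summed to 0 CPM in the long and 2.05 in the short cohort, and the 4 B cell genes to 2.20 and 1.37, with Cd79a and Ms4a1 at 0. Neutrophil genes were the exception. The 8 genes of that list summed to 3560 CPM in members of the long and 884 in the short cohort, against 927 and 409 in the other Lyz2 barcodes. Of these UMIs most were S100a8 and S100a9, and 7 members with UMIs of at least 3 of Csf3r, Cxcr2, Retnlg and G0s2 held 89.5% of the members' S100a8 and S100a9 UMIs. These 7 barcodes lay in the long anti-PD-1 (1), long anti-MIF (2) and short isotype (2) samples and in the short sample of the fifth hashtag (2). They had a median of 2527 UMIs, and Ly6g, a gene that defines neutrophils, was at 0 in long and at 0.684 CPM in short members. Their part in the results below was measured by leaving them out.

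The main comparison asked what members express against the other Lyz2 barcodes of the same sample. UMIs were summed per arm sample and class, and 6 arm samples with at least 5 members entered. The long isotype sample, with 2 members, and the long anti-PD-1 sample, with 3, were left out. Members had higher levels of glycolysis and hypoxia genes, of the enzymes Nos2 and Hmox1, of Cxcl2 and of several matrix genes, and lower levels of Ms4a7 and Cd72. Among 7019 genes tested with edgeR's quasi-likelihood test, 130 were higher in members (1.85%) and 26 lower (0.37%). A call needed a Benjamini-Hochberg adjusted p under 0.05 together with a log2 fold change beyond 0.5 in either direction. The median log2 fold change over all genes was -0.02. These p-values measure how steady a difference was over arm samples from 2 libraries and not over mice. Dropping the short anti-PD-1/anti-MIF sample gave 28 calls in all, and dropping the long anti-MIF, long anti-PD-1/anti-MIF or short anti-MIF sample gave 95, 85 and 66. Of the 156 main calls, 28, 83, 77 and 63 were still called in these fits, in the same order. The short cohort alone gave 35 calls and the long cohort alone 92.

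**Figure D1:**
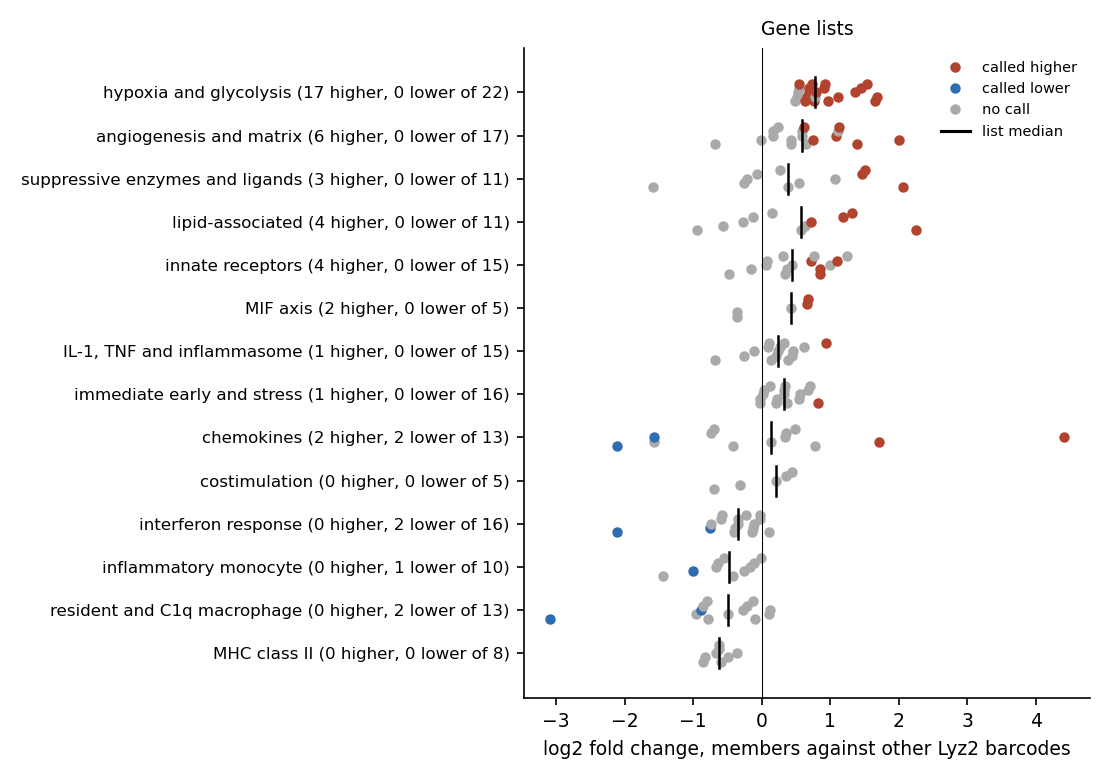
Log2 fold change of members against other Lyz2 barcodes (x axis) for the tested genes of 14 gene lists (rows), 1 point a gene, with a bar at each list's median. Points called higher by edgeR are red, points called lower are blue and the rest gray; in the hypoxia and glycolysis list 17 of 22 genes are red and none is blue.

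The hypoxia and glycolysis list stood furthest from the other lists by count. Of its 22 tested genes 17 were higher in members, none was lower, and the list's median log2 fold change was 0.77, beside 1.85% of all genes called higher. Vegfa, which HIF-1 also raises, was in the rule. Genes that go with Vegfa were thus set to be higher, and this count is no independent result. Glycolysis was covered from uptake to export. Slc2a1 (log2 fold change 1.11, SE 0.18), hexokinase Hk2 (0.80), Gpi1 (0.93), Pfkl (0.97), Pgk1 (0.91), Eno1 (0.73), Ldha, which makes lactate (0.66), and the lactate exporter Slc16a3 (0.76) were all higher. Hif1a itself (0.49, SE 0.17), Hk1, Pfkp, Pgam1 and Pdk1 did not pass the test. Gapdh and Ldha have near-identical processed copies in the genome, so their counts are uncertain. Where the list had the largest differences, the genes were HIF targets outside glycolysis. Egln3, an oxygen-sensing prolyl hydroxylase, differed by 1.69 (SE 0.25), Hilpda, a lipid droplet protein induced by low oxygen, by 1.66 (SE 0.24), Ndrg1 by 1.54 (SE 0.32), Bnip3, a mitophagy receptor, by 1.46 (SE 0.22) and Ero1l, an oxidase of protein folding, by 1.37 (SE 0.31). The edgeR adjusted p was 0.00162 for Egln3 and Hilpda and 0.00175 for Bnip3. Bnip3, Egln3, Hilpda and Slc2a1 kept their call in all 19 other settings tried, as did Cxcl2, Cd9 and Hmox1. Other genes of the list lost theirs often, with P4ha1 called in 5, Hk2 in 7, Pkm in 9 and Eno1 and Ero1l in 13 of 19. Of the 17 calls, 5 to 16 were kept with 1 arm sample left out, with 5 kept without the short anti-PD-1/anti-MIF sample, and 5 were kept in the short cohort alone and 12 in the long.

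Slc2a1 showed the range over samples. Its level in members was 684 CPM in the long anti-MIF and 696 in the long anti-PD-1/anti-MIF sample, and 284, 341, 488 and 736 in the short isotype, anti-PD-1, anti-MIF and combination samples. In the other Lyz2 barcodes of these samples, in the same order, it was 188, 216, 191, 259, 340 and 309. Members were higher within each of the 6 samples, but the short isotype members lay inside the range of the other barcodes, so the groups overlapped. Bnip3 in members was 659 and 857 in the long samples and 202, 396, 393 and 566 in the short samples. Against it, the other Lyz2 barcodes ran from 135 to 220 CPM, and only the short isotype members overlapped them. Egln3 in members was 191 and 281 in long and 112, 73.7, 191 and 245 in the short samples, against 26.4 to 83.9 in the other barcodes. Short anti-PD-1 members lay within that range. The smallest difference between members and other barcodes was in the short anti-PD-1 sample for Slc2a1 and Egln3 and in the short isotype sample for Bnip3.

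**Figure D2:**
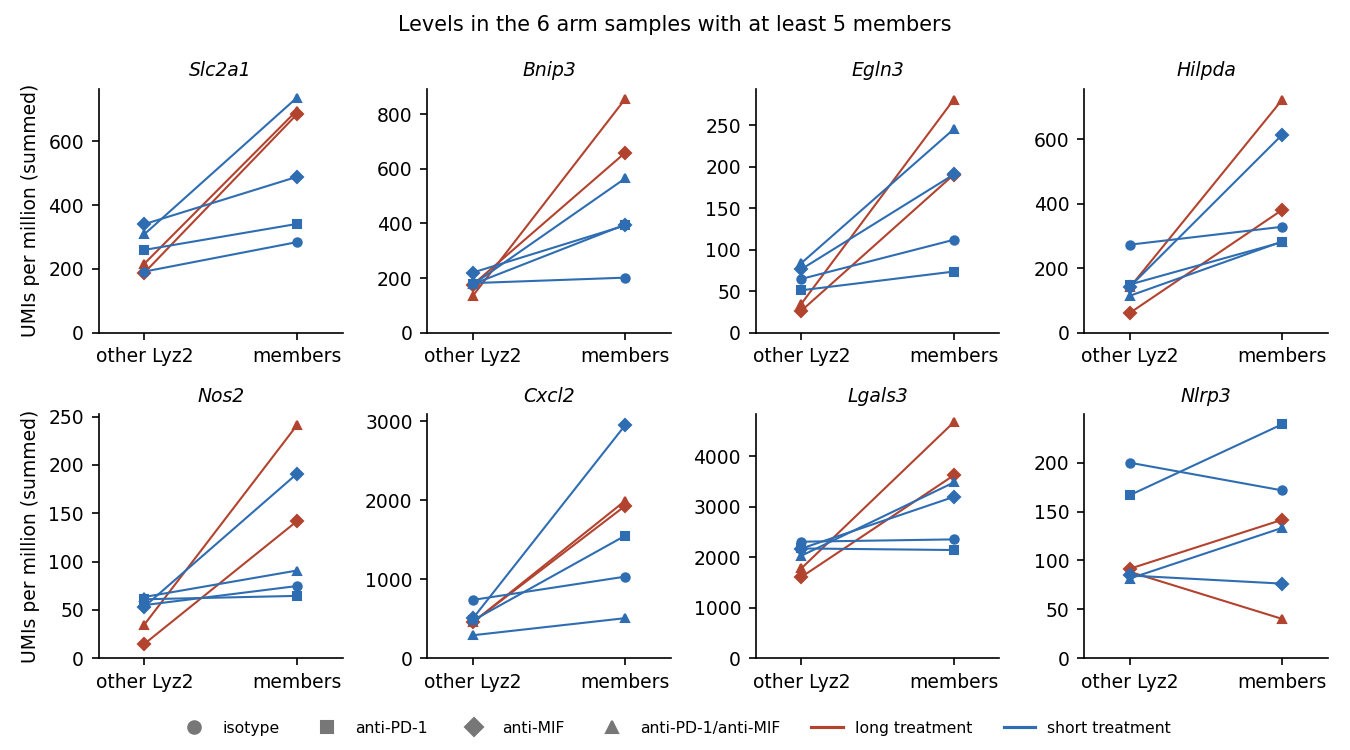
CPM (y axis, from 0) of 8 genes in the other Lyz2 barcodes and the members of the 6 arm samples with at least 5 members, 1 line a sample, with red for the long and blue for the short cohort and the symbol for the arm. Slc2a1, Bnip3, Egln3 and Hilpda lie higher in members in every sample, Nos2 reaches 241 in the long anti-PD-1/anti-MIF sample, and lines for Nlrp3 go both ways.

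Since the called list holds HIF targets, their promoters were read for the letters of the hypoxia response element. The motif searched was ACGTG or GCGTG on either strand in the 250 bases before each RefSeq gene start (build GRCm38.p6), and ACGTG on both strands overlaps where a window holds CACGTG. Of the 17 called genes 15 matched a promoter entry, and 16 of their 20 windows held the motif (80%), in 13 genes, against 12679 of 32851 windows (38.6%) over all genes. The list was made of genes known to respond to hypoxia, so that share follows from how the list was chosen and says nothing about members. Some windows of 1 gene overlap, so not all windows are independent, and a match is not a site of binding. The windows printed here are those of the 3 genes with the largest fold change that have an entry, 5′ to 3′ along the gene, with matches in capitals (CACGT and CACGC are the motif read on the other strand). They are chr12:54203875-54204124 on the minus strand for Egln3, chr6:29272376-29272625 on the plus strand for Hilpda and chr7:138909507-138909756 on the minus strand for Bnip3, all upstream of the transcript start, with 1, 3 and 5 matches. Hilpda has another annotated start, whose window held none.
Egln3: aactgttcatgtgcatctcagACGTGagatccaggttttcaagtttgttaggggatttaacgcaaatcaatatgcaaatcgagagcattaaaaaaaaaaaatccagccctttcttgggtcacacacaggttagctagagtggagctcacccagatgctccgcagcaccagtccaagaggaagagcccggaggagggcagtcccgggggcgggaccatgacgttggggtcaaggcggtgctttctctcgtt
Hilpda: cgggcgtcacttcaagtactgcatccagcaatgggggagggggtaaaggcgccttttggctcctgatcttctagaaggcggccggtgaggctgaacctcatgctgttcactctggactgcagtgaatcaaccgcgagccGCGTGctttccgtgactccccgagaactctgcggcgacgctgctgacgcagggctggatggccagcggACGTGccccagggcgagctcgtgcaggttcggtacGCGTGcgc
Bnip3: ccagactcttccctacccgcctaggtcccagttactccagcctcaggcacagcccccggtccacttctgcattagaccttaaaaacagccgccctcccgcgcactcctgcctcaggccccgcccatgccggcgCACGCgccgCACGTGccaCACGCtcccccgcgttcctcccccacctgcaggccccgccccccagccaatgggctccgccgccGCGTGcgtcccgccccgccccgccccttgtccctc

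Among 17 angiogenesis and matrix genes, 6 were higher and none lower, with a median of 0.59. Spp1, the secreted matrix protein osteopontin, differed by 1.40 (SE 0.26), the syndecan Sdc1 by 2.00 (SE 0.46), the macrophage elastase Mmp12 by 1.12 (SE 0.26), clotting factor F10 by 1.09 (SE 0.22), Ecm1 by 0.75 and the urokinase receptor Plaur by 0.62. The Mmp12 call was kept in 10 of 19 other settings, the Ecm1 and Plaur calls in 11 and the F10 call in 14. Fibronectin Fn1 (0.65, SE 0.19) and F13a1 (1.12, SE 0.35) did not pass, nor did Tgfb1 (0.17). Of 11 suppressive genes, 3 were higher and none lower, with a median of 0.39. Nos2, the inducible nitric oxide synthase, was at 142 and 241 CPM in long members and at 74.6, 64.5, 191 and 90.7 in short members. The other barcodes of these samples had 14.8 and 34.8 in long and 54.9, 61.0, 53.4 and 63.3 in short samples. Every sample of members lay above all samples of the other barcodes, though by little in short anti-PD-1, and the log2 fold change was 1.51 (SE 0.32, edgeR adjusted p = 0.0148). The Nos2 call was lost in 7 of 19 other settings, with values from 0.90 to 3.03. The heme oxygenase Hmox1 differed by 1.46 (SE 0.24), while the PD-1 ligand Cd274 (0.55, SE 0.17) and Mrc1 (-1.59, SE 0.43) did not pass.

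Few inflammatory genes were called. In the IL-1, TNF and inflammasome list 1 of 15 tested genes was higher, the prostaglandin synthase Ptgs2 (0.94, SE 0.16). Il1b (0.44, SE 0.19), Tnf (0.13, SE 0.24) and Casp1 (-0.68, SE 0.19) did not pass. Of 13 chemokines 2 were higher and 2 lower. Cxcl2, which draws neutrophils, differed by 1.71 (SE 0.21, edgeR adjusted p = 0.000248). It reached 1929 and 1994 CPM in the long members and 1033, 1552, 2952 and 507 in the short members, against 290 to 737 in the other barcodes, and only the short anti-PD-1/anti-MIF members lay in that range. In the long anti-PD-1/anti-MIF sample 137 of 149 Cxcl2 UMIs came from 1 barcode, and without it the level was 195. Cxcl3 was also called higher (4.41, SE 0.89) but was seen in 13 members (4.74%), with 34.95% of its UMIs in 1 barcode and a sum of members at 0 in the short anti-PD-1/anti-MIF sample, so that its fitted size is no bound. Cxcl9 and Ccl5, ligands that draw T cells, were called lower, but not in every sample. In the short anti-PD-1 sample Cxcl9 stood at 1027 CPM in members and 788 in the other barcodes, and Ccl5 at 285 and 284. Member sums were at 0 for Cxcl9 in both anti-PD-1/anti-MIF samples and for Ccl5 in the long one, so their fitted sizes are no bound. The Cxcl9 call was lost in 10 and the Ccl5 call in 8 of 19 other settings. Of 16 immediate early and stress genes, which also respond to tissue digestion, Ier3 was higher (0.82, SE 0.17), 15 had no call and the median was 0.33.

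Of 15 innate receptors 4 were higher, namely the lipopolysaccharide co-receptor Cd14 (0.73, SE 0.19) and the C-type lectins Clec4d (1.10), Clec4e (0.85) and Clec4n (0.85). Cd14 in members was 1588 and 1526 CPM in long and 1515, 1008, 1736 and 982 in short samples. The other barcodes ran from 598 to 1355, so the groups overlapped, and in the short anti-PD-1 sample they were above members (1269). The Cd14 call was lost in 10 of 19 other settings, Clec4e in 7, Clec4d in 5 and Clec4n in 4. In the lipid-associated list 4 of 11 were higher, which were Gpnmb (2.26, SE 0.40), the tetraspanin Cd9 (1.32, SE 0.17), the fatty acid binding protein Fabp5 (1.19, SE 0.25) and the galectin Lgals3 (0.72, SE 0.15). Trem2 (-0.28, SE 0.17) and Apoe (-0.13, SE 0.15), the genes that name lipid-associated macrophages, did not pass. Within the MIF axis Mif (0.66, SE 0.13) and the chemokine receptor Cxcr4 (0.67, SE 0.17) were higher, whereas Ddt (-0.36), Cd74 (-0.36) and Cd44 (0.42) had no call; Mif has near-identical copies in the genome, so its count is uncertain. The Cxcr4 call was lost in 11 of 19 other settings, with values from 0.11 to 1.12, and the Mif call in 5, from 0.13 to 1.42. No costimulation gene of 5 passed, with Cd80 at 0.36 (SE 0.16) and Cd86 at 0.21 (SE 0.14). Of 12 cell cycle genes, Tubb5 (-0.09) and Pcna (-0.59) could be tested and had no call.

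Lower in members were Ms4a7 (-3.09, SE 0.35, edgeR adjusted p = 0.000159) and Aif1 (-0.89, SE 0.20) of 13 tested resident and C1q macrophage genes, Ly6a (-1.001) of 10 monocyte genes, and Cxcl9 and Irf7 (-0.75) of 16 interferon genes, of which the other 14 had no call. The gate itself removed C1q-high and Ly6c2-high cells, so genes that go with C1q or Ly6c2 were set to be lower. Ms4a7 had 58.6 CPM in the long anti-MIF members, 15.3 in the short anti-MIF members, 2.49 in the short isotype members and 0 in the other 3 samples, against 38.04 to 431 in the other barcodes. None of 8 MHC class II genes passed, though their median was -0.62 and H2-Aa differed by -0.62 (SE 0.22). Outside the lists, Cd72 (-1.74), Slamf9 (-1.69), the complement factor Cfb (-1.50), the guanylate-binding protein Gbp6 (-1.46), the creatine kinase Ckb (-1.44), cyclin Ccnd1 (-1.35), Ifit1bl1 (-1.34), Ppfia4 (-1.28) and AW112010 (-1.27) fell furthest among genes alike in sign in all samples. Ankrd33b (1.67) and the glycerol and lactate channel Aqp9 (1.64) were the highest outside the lists. Of the settings in which each could be tested, the call was lost for Ifit1bl1 in 11 of 16, for Gbp6 in 9 of 16, for Ankrd33b in 8 of 10, for Aqp9 in 5 of 11 and for Aif1 in 8 of 19.

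Each of the neighboring groups gave its own contrast, fitted alike. Against the Ly6c2-high barcodes 112 of 5509 genes were higher (2.03%) and 64 lower (1.16%). The hypoxia and glycolysis list kept 14 of 22 genes higher (median 0.73), whereas 7 of 10 monocyte genes (median -0.67) and 7 of 16 interferon genes (median -0.70) were lower. Haptoglobin Hp differed by -1.30, Cxcl10 by -1.33 and Isg15 by -0.72. Members exceeded these barcodes most in Mmp12 (2.62), podoplanin Pdpn (2.23), Spp1 (2.05) and Cxcl2 (1.65), and in 6 of 11 lipid-associated genes, Apoe (0.91) among them. Since Ly6c2 is in the rule, the drop in genes that go with it is no independent result.

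Against the C1q-high barcodes, which were deeper, 439 of 4604 genes were higher (9.54%) and 285 lower (6.19%). In this contrast 18 of 22 hypoxia and glycolysis genes were higher (median 0.91), and 7 of 8 MHC class II genes (median -1.39) and 8 of 12 resident macrophage genes (median -1.06) were lower. H2-Aa differed by -1.47, Cd74 by -1.12 and Trem2 by -1.12. Inhba, a subunit of activin, was highest (3.76, SE 0.78), with the oxidized lipid receptor Olr1 (2.39), Egln3 (2.32), F10 (2.31), F13a1 (2.09) and Fabp5 (2.05). Mmp12 stood at -0.12 (SE 0.24), Mif at 0.13 (SE 0.17) and Spp1 at 0.96 (SE 0.32) here, with no call. Of the monocyte list 5 genes were higher and Ly6a lower, and 8 of 16 immediate early genes were higher, Hspa1a (1.16) and Hspa1b (1.24) among them.

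The Thbs1/Vegfa-low barcodes passed the same limits on Ly6c2 and C1q and were set apart from members by Thbs1 and Vegfa alone. With 2960 genes tested, 200 were higher in members (6.76%) and 123 lower (4.16%). All 16 calls among 21 hypoxia and glycolysis genes were higher (median 1.23), led by Hilpda (2.98), Egln3 (2.82) and Bnip3 (2.62), and 9 of 11 innate receptors were higher (median 1.01). Ptgs2 (2.75, SE 0.24) also stood higher in members. Lower in members were the adhesion receptor Adgre4 (-2.19), the peptidase Ace (-1.90), Spn, which encodes CD43 (-1.85), and Pou2f2 (-1.61), several of which are known from patrolling monocytes. The interferon list, with 7 genes lower against the Ly6c2-high barcodes, had 4 genes higher here (Ifit1, Ifit2, Isg15 and Rsad2), Irf1 lower and a median of 0.40. Ly6a (0.07, SE 0.33) and Irf7 (0.17, SE 0.24) had no call in this contrast and lay on the other side of 0 from the contrast with all other Lyz2 barcodes.

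Members varied among themselves along Vegfa. The 184 members with a Vegfa UMI and the 90 without were split by a gene of the rule, so what follows is description. Hypoxia and glycolysis genes summed to 14972 CPM in members with both genes and 15222 in those with only Vegfa, but to 6344 in those with only Thbs1. By cohort, members with only Thbs1 had 7533 CPM in long and 6065 in short treatment, below the other Lyz2 barcodes (9805 and 7887). In each of the 7 arm samples with at least 5 members on both sides the sum was higher with Vegfa, and the monocyte list was lower in all 7. In the short isotype sample the sums were 10025 with and 4454 without Vegfa, and in the short anti-PD-1/anti-MIF sample 16425 and 3898. Members with only Vegfa also had the most MHC class II, 25411 CPM against 12214 with both genes and 9691 with only Thbs1. Median depths of 6909, 7385.5 and 5508 UMIs (both, only Vegfa, only Thbs1) differ in the direction of detection, and how far depth set this split was not tested. Members with only Thbs1 had Spp1 at 182 and Egln3 at 42.5 CPM, against 1067 and 218 in members with both genes.

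**Figure D3:**
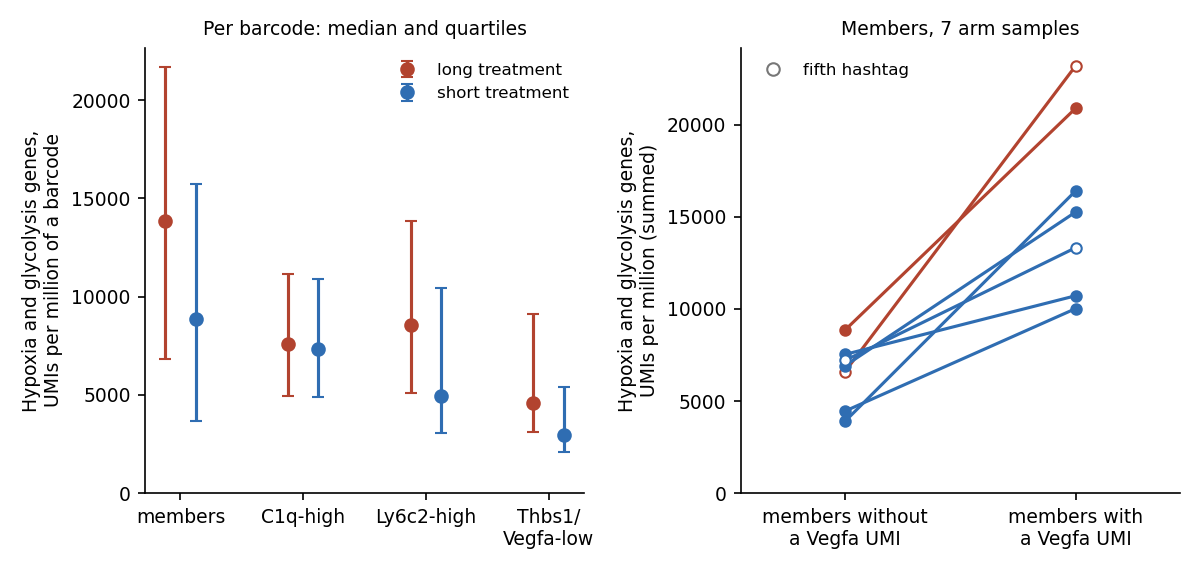
Left, the summed hypoxia and glycolysis genes per barcode in CPM (y axis, points are medians and bars quartiles over barcodes of the 4 named arms) for members and 3 other groups of Lyz2 barcodes, red long and blue short. Right, the same sum over members without and with a Vegfa UMI, 1 line for each of 7 arm samples, all of which go up.

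Per barcode, the median of that sum was 13866 CPM in long and 8845 in short members of the named arms. It was 7592 and 7333 in C1q-high, 8532 and 4948 in Ly6c2-high and 4599 and 2952 in Thbs1/Vegfa-low barcodes. The quartiles of members, 6833 to 21684 in long and 3684 to 15720 in the short cohort, covered the medians of the C1q-high barcodes, so many single members were not high in these genes.

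The share of members among Lyz2 barcodes was then compared between arms and cohorts. In the long cohort it was 4% with isotype (2 of 50, 95% interval 0.488% to 13.7%), 2.46% with anti-PD-1 (3 of 122, 0.510% to 7.02%), 4.42% with anti-MIF (22 of 498, 2.79% to 6.61%) and 5.76% with anti-PD-1/anti-MIF (8 of 139, 2.52% to 11.0%). In the short cohort it was 12.9% with isotype (59 of 459, 9.93% to 16.3%), 3.78% with anti-PD-1 (37 of 979, 2.67% to 5.17%), 9.47% with anti-MIF (32 of 338, 6.57% to 13.1%) and 10.7% with anti-PD-1/anti-MIF (29 of 271, 7.28% to 15.0%). These exact Clopper-Pearson intervals cover counting error only. The short anti-PD-1 sample was the low point of its cohort, and its interval did not reach those of the other 3 named arms, while all intervals of the long cohort overlapped.

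**Figure D4:**
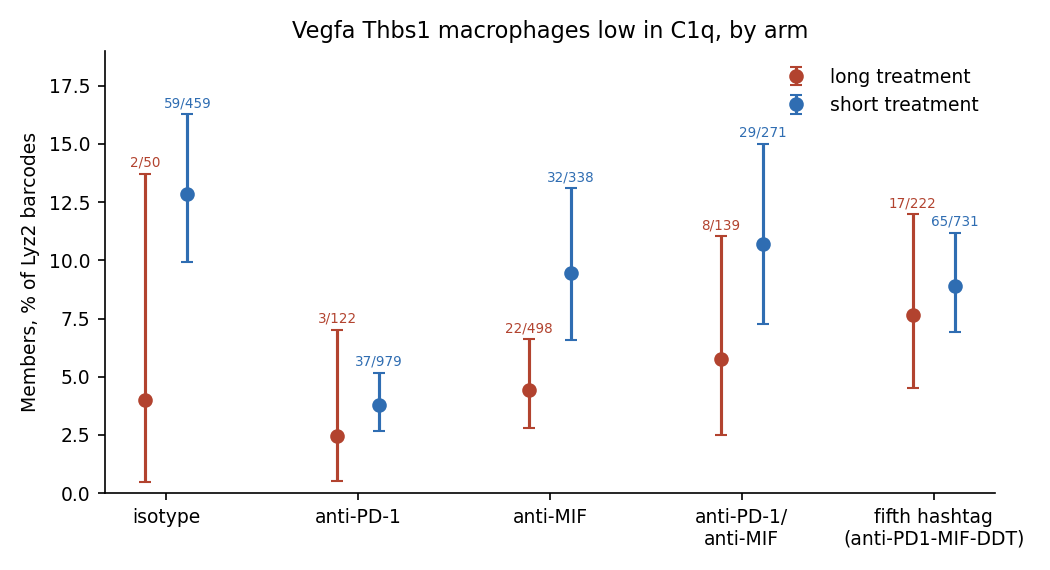
Members as a percent of Lyz2 barcodes (y axis, from 0) for each arm, red long and blue short, with exact 95% Clopper-Pearson intervals for counting error and the counts above. The short isotype sample is highest at 12.9% and short anti-PD-1 lies at 3.78%, and each named arm is lower in the long than in the short cohort.

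The long cohort had the smaller share in 4 of 4 arms, by a mean of -5.04 percentage points (SD 3.08, n = 4 pairs, two-sided p = 0.13 in an exact permutation test that flips the sign of each pair, the smallest p this design can give, and 0.375 after adjustment over 3 comparisons). With anti-MIF the share was higher in 3 of 4 pairs, by a mean of 1.81 points (SD 4.37, exact permutation p = 0.5, adjusted 0.625). The long anti-MIF against isotype pair, which counts as 1 of the 3, rests on 2 members with isotype. It turned negative, leaving 2 of 4 pairs higher, at a hashtag ratio of 5 (3.59% against 6.67%, mean over pairs 1.06 points), thinned to 4000 UMIs (3.87% against 5.13%), at a Thbs1 and Vegfa limit of 5 (3.41% against 4%), with both genes required (2.61% against 4%) and with Lyz2 at 10 or more (3.64% against 4.44%). With anti-PD-1 it was higher in 2 of 4 pairs and the mean was -2.01 points (SD 4.89, exact permutation p = 0.625, adjusted 0.625). That mean rested on 1 pair, short anti-PD-1 against short isotype, which differed by -9.07 points, and was 0.343 without it. The short anti-PD-1/anti-MIF against anti-MIF pair, higher in the main setting, turned negative thinned to 4000 UMIs (9.59% against 14.1%). It also did so at a Thbs1 and Vegfa limit of 5 (8.86% against 9.17%) and with both genes required (5.90% against 6.51%). With 4 pairs no difference could reach 0.05, so these p-values do not decide any of the 3 comparisons. Over pairs left out in turn the cohort difference stayed between -6.28 and -3.77 points, and its mean was larger than the SD over pairs, which was not so for anti-MIF and anti-PD-1.

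Within members, genes were compared between cohorts and arms in 1 fit over the 6 arm samples, with cohort, anti-PD-1 and anti-MIF as terms and 3474 genes tested. No arm had a replicate within a cohort, so arm samples served as replicates of each other. The spread behind these p-values is how far those samples departed from additive terms, with few residual degrees of freedom, and not variation between mice. Between long and short members no gene was called higher (0%) or lower (0%), with 193 genes at an unadjusted p below 0.05 by edgeR and 43 by DESeq2, which also made 0 calls. With anti-PD-1 no gene was called higher (0%) or lower (0%), with 110 genes at an unadjusted p below 0.05 by edgeR and 21 by DESeq2, again with 0 calls. With anti-MIF 1 gene was called higher (0.0288%) and none lower (0%), and DESeq2 also called 1 gene, with 204 and 43 genes at an unadjusted p below 0.05. In the same 6 samples the other Lyz2 barcodes, which hold far more UMIs, had 367 of 9930 genes higher and 502 lower in the long cohort, 0 and 0 with anti-MIF, and 0 and 1 with anti-PD-1. The numbers of calls differ with depth and are not a test of a difference between the classes.

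Spp1 was the gene called with anti-MIF (log2 fold change 2.33, SE 0.28, edgeR adjusted p = 0.0185). In the short cohort it stood at 445 CPM in isotype and 396 in anti-PD-1 members, and at 1942 in members given anti-MIF alone and 2198 in those given the combination. The other Lyz2 barcodes of these samples had 425, 186, 476 and 289. In the long cohort only anti-MIF (601) and anti-PD-1/anti-MIF (803) members were numerous enough to enter, so the fold change rests on the short cohort. The long samples left out, isotype with 2 and anti-PD-1 with 3 members, had 713 CPM (14 UMIs, all in 1 barcode) and 1349 CPM. The 713 lies between the long anti-MIF (601) and long anti-PD-1/anti-MIF (803) levels, and the 1349 lies above both. The call was lost with a Thbs1 and Vegfa limit of 5, with HTODemux singlets and after thinning to 4000 UMIs, each of which left 0 calls, while the log2 fold change stayed between 2.09 and 2.61 over all 12 other settings. An Spp1 UMI was seen in 12 of 59 short isotype, 6 of 37 anti-PD-1, 16 of 32 anti-MIF and 12 of 29 anti-PD-1/anti-MIF members. Leaving out the richest barcode of each sample lowered the short anti-MIF level to 1156 and the anti-PD-1/anti-MIF level to 1214, still above 320 and 176 in isotype and anti-PD-1. Of Cd3 barcodes, which are no clean background since activated T cells can express the gene, 16.5% in the long and 3.86% in the short cohort held an Spp1 UMI, against 38.5% and 31.1% of members. Thinned to 2000 UMIs a barcode, with 1 long and 8 short members and 18 and 30 Cd3 barcodes too shallow to use, the shares were 11.4% and 1.80% of Cd3 barcodes and 37.3% and 24.8% of members.

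**Figure D5:**
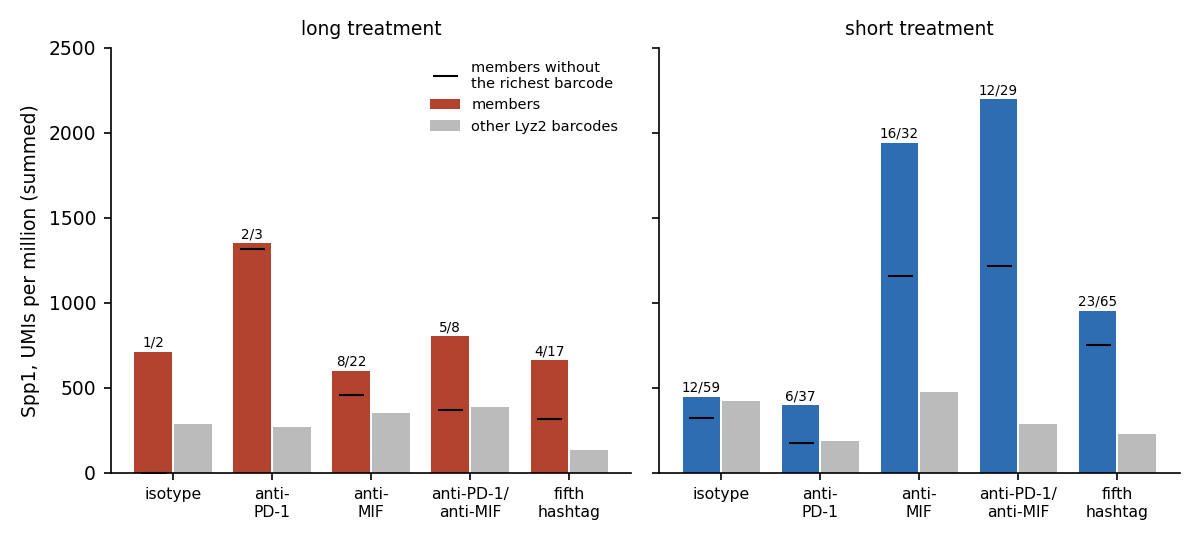
Spp1 in CPM (y axis, from 0) in members (colored) and other Lyz2 barcodes (gray) of each arm, with the number of members holding an Spp1 UMI above each bar and a black line at the members' level without the richest barcode. The short bars of anti-MIF alone and of the combination reach 1942 and 2198, and the other short members of the named arms lie at 445 and 396.

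Whether such differences were larger in members than in other Lyz2 barcodes was tested as an interaction on 7019 genes. Its p-values rest on the same unreplicated arm samples with few residual degrees of freedom and do not measure variation between mice. For anti-MIF 19 genes were higher (0.271%) and 11 lower (0.157%), again resting on the short cohort. Spp1 (2.03, SE 0.26), Cd14 (1.34, SE 0.21), Fn1 (1.32, SE 0.27), F13a1 (1.83, SE 0.32), Gpnmb (2.82, SE 0.58) and Chil3 (1.87, SE 0.32) were among the genes that differed more upward in members. For Cd14 in the short cohort the move was in the other barcodes. They went from 1355 and 1269 CPM without anti-MIF to 598 and 604 with it, while short members went from 1515 to 1736 and from 1008 to 982. The long samples without anti-MIF did not enter the fit. In that cohort the other barcodes were higher with anti-MIF, both with and without anti-PD-1. Long members were higher too, from 916 (2 members) to 1588 and from 721 (3 members) to 1526. Of these genes only Spp1 was called with anti-MIF within members. Ccl5, AW112010, H2-Aa (-1.03, SE 0.23) and H2-Ab1 (-0.97, SE 0.22) differed more downward. H2-Aa in short members was 2914 and 2974 CPM without anti-MIF (isotype, anti-PD-1) and 877 and 1520 with it (anti-MIF, anti-PD-1/anti-MIF), while the other barcodes had 2261 and 2671 without and 1650 and 2797 with it. DESeq2 made 0 calls for this interaction (93 genes at an unadjusted p below 0.05), and without the neutrophil-like barcodes of both classes edgeR made 19.

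For the cohort 8 genes were higher (0.114%) and 4 lower (0.057%) in the interaction. Ndrg1 (1.85, SE 0.35) stood at 376 and 683 CPM in long members and at 127, 189, 355 and 213 in short members. Both long samples in the fit had anti-MIF, so the cohort term rests on the 2 arms with anti-MIF, in which Ndrg1 in members was 376 against 355 with anti-MIF alone and 683 against 213 with the combination. In the other barcodes it ran the other way, with 53.6 and 59.6 in long and 121 to 139 in short samples. Fabp5 (1.80, SE 0.37) and F13a1 (1.53, SE 0.32) had differences further upward in long members, and the chitinase-like gene Chil3 (-2.62, SE 0.39) and Spp1 (-1.72, SE 0.26) further downward. F13a1 in members was 327 CPM in long against 534 in short with anti-MIF alone, and 843 against 501 with the combination. In the other barcodes of these arms it was 43.4 against 278 and 141 against 221. For anti-PD-1 0 genes were higher (0%) and 5 lower (0.0712%), which were S100a8, S100a9, G0s2, Slpi and Cmss1. The neutrophil genes S100a8, S100a9 and G0s2 were called in all 3 interactions, and without the neutrophil-like barcodes the calls fell to 5 for the cohort and 0 for anti-PD-1. G0s2 was among the genes that picked these barcodes. Without them, 2 of the 12 cohort calls and 2 of the 5 anti-PD-1 calls could no longer be tested. DESeq2 made 0 calls in both, with 138 and 57 genes at an unadjusted p below 0.05, against 513 and 268 by edgeR.

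Some secreted factors and the costimulation gene Cd80 were set side by side in the combination and anti-PD-1 samples of the short cohort. They are given as ratios with exact intervals for counting error and no test. The intervals take each UMI as independent. UMIs of a gene can lie in few barcodes, as seen above for Spp1, so the intervals are too narrow. In members Spp1 was 5.55 times (4.39 to 7.09) and Fn1 3.27 times (2.47 to 4.38) as high in the combination sample, and among other Lyz2 barcodes 1.55 (1.40 to 1.72) and 1.26 times (1.18 to 1.36). In the short samples the intervals for Cd80 (0.941, 0.539 to 1.63), Ccl9 (0.905, 0.514 to 1.58) and Apoe (1.06, 0.797 to 1.41) included 1, and the interval for Ccl6 lay below 1 (0.673, 0.472 to 0.951). The chemokine Ccl4 had 7 UMIs with the combination and 307 with anti-PD-1, 98 of them in 1 barcode, a ratio of 0.0264 (0.0105 to 0.0551), and in the other barcodes 0.304 (0.280 to 0.330). The corresponding long samples held 8 and 3 members, and there Spp1 (0.595, 0.396 to 0.902) and Ccl6 (2.27, 1.59 to 3.32) lay on the other side of 1 from the short samples. So did Ccl4, at 2.56 (0.311 to 118, on 6 and 1 UMIs) in long members and 1.67 (1.52 to 1.83) in the other long barcodes. In these few long members Cd80 was also below 1 (0.213, 0.0657 to 0.614), and Ccl9 (8.32, 2.15 to 71.1) and Apoe (5.36, 2.50 to 13.7) were above it, with 2 Ccl9 and 7 Apoe UMIs in the 3 anti-PD-1 members.

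The fifth hashtag arm held 17 members of 222 Lyz2 barcodes in the long cohort (7.66%, 4.52% to 12%) and 65 of 731 in the short cohort (8.89%, 6.93% to 11.2%). Slc2a1 stood at 816 and 473 CPM in long and short members against 398 and 298 in the other barcodes, Bnip3 at 630 and 399 against 290 and 225, and Egln3 at 194 and 196 against 62.4 and 92.2. Members were higher than the other barcodes of the same sample in all 3 genes. Adding this arm to the fit of members against other Lyz2 barcodes gave 300 calls.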

How the data were processed

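The authors deposited UMI count matrices of genes and hashtags for the long and the short treatment library, made per the submitters' processing notes with Cell Ranger 7.1.0 on mm10 (notes that also name Seurat 5.1.0, R 4.3.2 and DESeq2). Values here are whole counts as deposited, without normalization, and CPM were computed from sums over barcodes. The members and gene lists were chosen with earlier results of these data known. Barcodes took the arm of their leading hashtag. Counts were summed per arm sample and class, sums of fewer than 5 barcodes were left out, and edgeR 4.0.16 (R 4.3.3) with TMM factors, filterByExpr and its quasi-likelihood test was fitted to all genes, with the arm sample as a block between classes and with cohort, anti-PD-1 and anti-MIF within members. DESeq2 1.42.0, Seurat 5.3.0 (HTODemux), no filter, thinning to 4000 UMIs, other gates, left-out samples and other comparison groups were alternatives, of which the fifth hashtag, the single cohorts and the removal of neutrophil-like barcodes were added after seeing the data. Any gene of the fixed lists may be named, and otherwise the 10 genes with the largest fold change in each direction among calls with at least 100 UMIs and 1 sign in all arm samples. For the interactions the condition on sign was not applied. Lists not discussed in full (natural killer, dendritic, plasmacytoid, fibroblast and endothelial markers) summed to at most 33.0 CPM in members of either cohort, mostly Pecam1. The list of ligands that the study names for its Vegfa/Nlrp3 macrophages had 1 call of 6 tested genes in members, Spp1. Of the list genes, 2 matched no symbol in the files. Doublets were treated only through the hashtag ratio and the limits on genes and Cd3. Some genes are not reported here.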

Additional observations from a re-analysis of the deposited data

Results flagged for a closer look

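Results are given here whose effect in members differed from that in other Lyz2 barcodes by edgeR's interaction test. Values are log2 differences of differences, and where a sum of members was at 0 UMIs the adjusted p is given in place of a size, since such a size is not bounded by the counts. The causes were not tested.

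For the cohort, Ndrg1 (1.85), F13a1 (1.53) and Fabp5 (1.80) differed further upward in long members and Spp1 (-1.72) and Chil3 (-2.62) further downward. Cxcl3 (edgeR adjusted p = 1.72e-05), G0s2 (1.41e-05), S100a8 (2.26e-07) and S100a9 (1.35e-06) were higher in this interaction, and Cxcl3 UMIs lay in 13 members. Both long samples in the fit had received anti-MIF, so these values rest on the 2 arms with anti-MIF. F13a1 in members given anti-MIF alone was lower in long (327 CPM) than in short (534), and higher with the combination (843 against 501). In the other barcodes it was lower in long in both arms (43.4 against 278 and 141 against 221).

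For anti-MIF, Spp1 (2.03), Gpnmb (2.82), Chil3 (1.87), F13a1 (1.83), Ero1l (1.42), Cd14 (1.34), Fn1 (1.32), Ier3 (1.15) and Lgals3 (0.79) differed further upward in members, and H2-Aa (-1.03) and H2-Ab1 (-0.97) further downward. Cxcl3 (edgeR adjusted p = 0.00153) was higher, and Ccl5 (0.00298), G0s2 (0.0425), S100a8 (0.0161) and S100a9 (0.0044) were lower. Both long samples in this fit had received anti-MIF, so these values rest on the 4 short samples. For Cd14 in these short samples the other barcodes moved (1355 and 1269 to 598 and 604 CPM) and members little (1515 to 1736 and 1008 to 982). In the long cohort, outside the fit for want of members without anti-MIF, the other barcodes did not fall with it. They were higher, as were long members (916 to 1588 and 721 to 1526, on 2 and 3 members without anti-MIF).

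For anti-PD-1, G0s2 (edgeR adjusted p = 0.00128), S100a8 (5.72e-07) and S100a9 (1.18e-07) were lower. Without the neutrophil-like barcodes, which G0s2 helped to pick, the count of calls for anti-PD-1 was 0, and 2 of the 5 main calls could not be tested.

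The fifth hashtag, which the labels do not list as a treatment, held members at 7.66% of Lyz2 barcodes in the long cohort, above 4% with isotype (2 of 50 barcodes), and the intervals of these shares overlapped. In the short cohort the order was the opposite, with 8.89% against 12.9%.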

How the results depend on the processing

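Against the 156 calls between members and other Lyz2 barcodes there were 286 without a filter on low counts, 79 thinned to 4000 UMIs, 41 without the arm sample as a block, 323 against Thbs1/Vegfa-low and 724 against C1q-high barcodes alone, 300 with the fifth hashtag, 35 in the short and 92 in the long cohort alone, and 28 to 194 with 1 arm sample left out. Within members, anti-MIF gave 36 calls without the filter, 0 at a Thbs1 and Vegfa limit of 5, 0 with HTODemux singlets, 0 thinned and 5 to 79 with 1 sample left out. Anti-PD-1 gave 11 without the filter and 12 to 50 with 1 sample left out, and the cohort 15 and 11 to 84. The 12 calls of the cohort interaction became 0 with DESeq2, 35 without the filter, 4 thinned, 5 without neutrophil-like barcodes and 10 to 113 with 1 sample left out. The 30 of the anti-MIF interaction became 0 with DESeq2, 15 thinned, 19 without neutrophil-like barcodes and 16 to 129, and the 5 of the anti-PD-1 interaction 0 with DESeq2, 12 without the filter, 3 at the limit of 5, 2 thinned, 0 without neutrophil-like barcodes and 15 to 24. Without neutrophil-like barcodes, 2 of the main calls of each interaction could no longer be tested. The cause of these moves was not tested, and fits within members that leave out a sample have 1 residual degree of freedom.

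Mmp12 turned to -0.12 against C1q-high barcodes, and Ly6a to 0.067 and Irf7 to 0.17 against Thbs1/Vegfa-low barcodes. For the anti-MIF interaction S100a8 turned to 0.36 with DESeq2, and S100a9 to 3.07 with DESeq2, 1.00 at the limit of 5 and 2.20 thinned. S100a8 turned to 0.059 for anti-PD-1 without neutrophil-like barcodes. With 1 arm sample left out, sizes that rest on sums at 0 and are no bound ran for the cohort interaction from -0.55 to 9.87 (S100a8) and -15.43 to 15.09 (S100a9), and for anti-MIF from -4.04 to 5.11 (Cxcl3), -13.92 to 2.89 (G0s2), -4.28 to 6.12 (S100a8) and -9.10 to 21.40 (S100a9), the sign turning without the short anti-MIF sample and, for S100a8 and anti-MIF, also without short isotype (0.52). The share difference for anti-PD-1 ran from -3.13 to 0.343 points with 1 pair left out, for anti-MIF from 0.109 to 3.55 and for the cohort from -6.28 to -3.77.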
